A study of Homo sapiens with 6 samples.

Results

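The genes described here are the 10 that encode the enzymes of glycolysis after aldolase, together with the lactate dehydrogenases: TPI1, GAPDH, PGK1, PGAM1, ENO1, ENO2, ENO3, PKM, LDHA and LDHB. They were chosen by their place in the pathway, with earlier results of these data known, and were taken by symbol from the gene count table of each library, where all 10 were found among the 28278 genes listed. Each of the 10 passed the filter on low counts that left 15307 genes for testing. The libraries came from HT29, a human colorectal adenocarcinoma line of epithelial morphology, 48 h after transfection with a siRNA against ALDOA (siALDOA, n = 3) or with a scrambled siRNA (siControl, n = 3), and the submitters named the replicates biological. The siRNA sequence used against ALDOA is not given in the sources used here, and cells without transfection were not among the samples, so an effect of the siRNA on other transcripts cannot be told apart from an effect of lower ALDOA. The question put to these genes is whether their mRNA changed when the enzyme directly before them in the pathway was knocked down.

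Glycolysis splits glucose into a pair of three-carbon sugars at the aldolase step. Triosephosphate isomerase then interconverts them, glyceraldehyde-3-phosphate dehydrogenase oxidises the product and yields NADH, and phosphoglycerate kinase and pyruvate kinase each pass a phosphate to ADP. Lactate dehydrogenase reduces the final pyruvate to lactate and returns NAD+ to the dehydrogenase step, a reaction that proliferating tumour cells, colorectal carcinoma among them, often run at a high rate even with oxygen present. Many of these genes are textbook targets of the hypoxia-inducible factors and of MYC, which bind short DNA words upstream of them.

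Those words were looked up in the 250 bases before each RefSeq start, on both strands: ACGTG and GCGTG, the core of the hypoxia response element, CACGTG, the E-box, which contains ACGTG on either strand, and GGGCGG, the GC box. For each of the 10 genes the window nearest to its canonical GENCODE start was taken, and 8 of these lay exactly at that start. The exceptions were GAPDH and PGAM1, whose RefSeq starts lay downstream of the canonical ones. ACGTG was present in 4 (GAPDH, PGK1, ENO2 and LDHA), GCGTG in 2 (PGK1 and ENO1) and CACGTG in 2 (GAPDH and LDHA). GGGCGG was present in 8, all except ENO3 and LDHA. The ACGTG matches of GAPDH lay within its CACGTG word. Of 35116 windows of that length in the RefSeq table, 18.5% held ACGTG, 32.2% held GCGTG, 6.34% held CACGTG and 42.6% held GGGCGG. TPI1, ENO3 and LDHA each had another RefSeq start, whose window was left out of these gene counts. The other ENO3 window held 2 matches to the hypoxia response core. The other windows of TPI1 and LDHA also held such matches, and that of LDHA held 4 GC boxes. The windows of PGK1 and LDHA are shown because they are abundant genes that hold ACGTG. That of ENO3 is shown because the gene had the largest fold change of the 10. The ENO3 window taken held none of the 4 words. The sequences are from RefSeq on GRCh38.p14, the assembly also called hg38. They are written 5′ to 3′ and end before the first annotated exon, with matches to the words, on either strand, in capitals.
PGK1, chrX:78103998-78104247, + strand: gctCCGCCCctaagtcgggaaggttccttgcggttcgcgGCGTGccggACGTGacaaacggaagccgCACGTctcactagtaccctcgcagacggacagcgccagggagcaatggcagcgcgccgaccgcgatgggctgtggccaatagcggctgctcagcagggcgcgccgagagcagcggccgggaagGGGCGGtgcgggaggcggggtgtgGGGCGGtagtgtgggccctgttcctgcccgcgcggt
LDHA, chr11:18394313-18394559, + strand: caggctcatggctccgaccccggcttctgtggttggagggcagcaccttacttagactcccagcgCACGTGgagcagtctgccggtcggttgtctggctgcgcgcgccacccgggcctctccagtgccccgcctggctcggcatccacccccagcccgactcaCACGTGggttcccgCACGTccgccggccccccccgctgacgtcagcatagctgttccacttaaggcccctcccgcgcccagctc
ENO3, chr17:4950869-4951079, + strand: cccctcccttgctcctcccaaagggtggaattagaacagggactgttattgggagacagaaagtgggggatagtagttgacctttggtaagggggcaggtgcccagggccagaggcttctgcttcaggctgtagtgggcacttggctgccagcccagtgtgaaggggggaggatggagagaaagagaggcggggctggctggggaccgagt
The PGK1 window held 2 matches to ACGTG, 1 to GCGTG and 3 to GGGCGG. The LDHA window held 5 matches to ACGTG, of which 4 lay within its 2 CACGTG words. A match describes the letters of the window and not the binding of a factor, which was not measured in these libraries.

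Library totals lay between 27277538 and 33237914 counts. Ribosomal RNA genes took 7.71% to 13.1% of the counts with siALDOA and 8.15% to 17.4% with siControl, and this share overlapped between the groups. Expression is given below as counts per 1000000 counts of the library (CPM) after TMM scaling, a correction of each library's total for the few genes that take a large share of it. Of 12 colon epithelium markers, 11 passed the filter and LGALS4 was listed at 0, with summed levels, before TMM scaling, of 9371.8 to 10223.0 CPM with siALDOA and 9423.5 to 10954.0 CPM with siControl. The keratin KRT19 rose (log2 fold change 0.38, adjusted p = 0.000577) and the keratin KRT18 fell (-0.28, adjusted p = 0.0152, edgeR). The KRT18 call was lost with library totals only (0.243) and on leaving out siALDOA 2 (0.075), siALDOA 3 (0.0704), siControl 2 (0.0702) or siControl 3 (0.0512). Of 7 fibroblast markers, 2 passed, with summed levels of 3.31 to 4.55 and 2.91 to 4.18 CPM in the same order, COL1A2 was listed at 0, and neither COL1A1 (2.37 against 1.94 CPM) nor LUM passed the test. None of 7 blood cell markers passed the filter, their sum was at most 0.188 CPM in any library, and TYROBP and CD3E were at 0.

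ALDOA, the targeted gene, which encodes the main aldolase of most tissues, was read first. It was at 283, 305 and 280 CPM with siALDOA and at 592, 637 and 668 CPM with siControl. ALDOA fell by 1.13 on the log2 scale (SE 0.060, 95% interval -1.25 to -1.003), a change of -54.3%, with an adjusted p of 6.95e-11 in edgeR's quasi-likelihood test. Every siALDOA library lay below every siControl library, as their labels say of the target. An annotated same-strand gene, ENSG00000285043, shares 89.8% of the canonical ALDOA transcript and had no row of its own in the count tables.

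None of the 10 genes after ALDOA changed at an adjusted p below 0.05 in edgeR, in either direction. Over all 15307 genes tested, 4.36% rose and 5.29% fell by this test, 9.66% together. Because 8 of the 10 are abundant, the share among genes whose mean reached 200 CPM, a floor chosen after the values were seen, is also given: 21.0% of 875 such genes were called. At an unadjusted p below 0.01, the threshold of the study's methods, 2 of the 10 passed (ENO3 and PGAM1) against 12.5% of all genes, and at an unadjusted p below 0.05 TPI1 passed as well, against 23.6% of all genes. In 3 of the 10 (TPI1, PGAM1 and ENO3) the groups did not overlap, against 27.7% of all genes. With DESeq2 on the same counts, 2 were called higher (TPI1 and ENO3) and 1 lower (PGAM1), against 5.72% higher and 6.84% lower of the 13526 genes to which it gave an adjusted p. With limma-voom none of the 10 was called, against 9.22% of all genes. With a block for the replicate number in edgeR, TPI1 and ENO3 were called higher and PGAM1 lower, against 987 higher and 1175 lower of all genes.

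**Figure D1:**
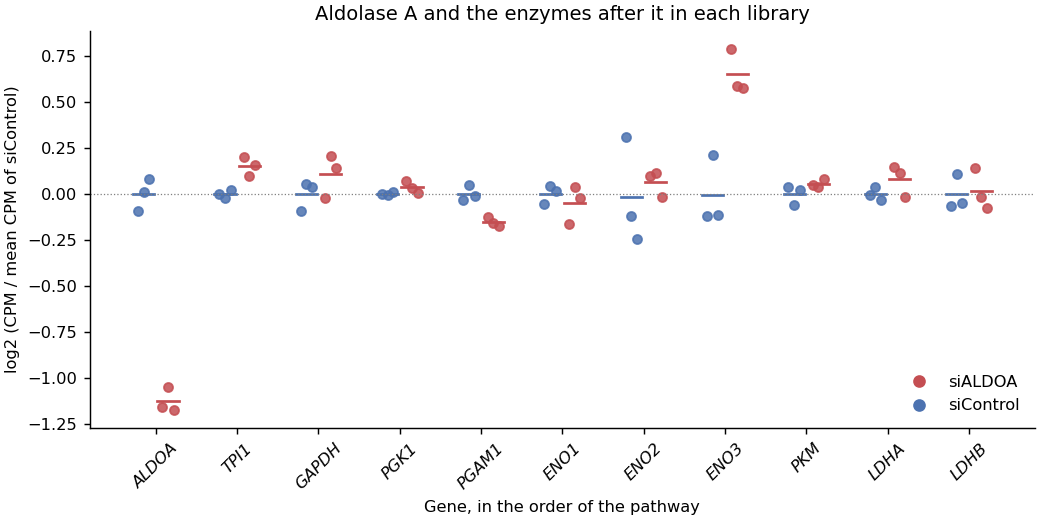
Each point is the CPM of 1 library divided by the mean CPM of siControl for that gene, on a log2 scale, for ALDOA and the 10 genes after it in pathway order, with short bars at the mean of the 3 log2 values of siControl (blue) or siALDOA (red). ALDOA lies far below 0 in all 3 siALDOA libraries, while the other genes lie near 0 except ENO3, which lies above 0 in all 3 siALDOA libraries.

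TPI1 encodes triosephosphate isomerase, the enzyme that turns dihydroxyacetone phosphate, one product of aldolase, into the other. It was at 559, 520 and 543 CPM with siALDOA and at 486, 479 and 494 CPM with siControl. Every siALDOA library lay above every siControl library. The log2 fold change was 0.15 (SE 0.055, 95% interval 0.04 to 0.27), or 11.2%, and the adjusted p of 0.0847 in edgeR missed the threshold. It passed with DESeq2 (0.0224), and over all alternatives the adjusted p ran from 0.0224 to 0.248. The gene lies on chr12:6867119-6870948, + strand, and 0.998% of the 150-base stretches of its canonical transcript also occur in the pseudogene TPI1P1.

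GAPDH encodes glyceraldehyde-3-phosphate dehydrogenase, whose mRNA is often used as a reference in expression assays. Its levels were 2491.5, 2918.9 and 2799.7 CPM with siALDOA and 2374.4, 2629.8 and 2604.0 CPM with siControl. The groups overlapped, since the lowest siALDOA library lay below 2 of the siControl libraries. Its log2 fold change was 0.11 (SE 0.082, 95% interval -0.06 to 0.28, adjusted p = 0.458, edgeR). In the annotation an antisense lncRNA, ENSG00000269968, overlaps 32.8% of the canonical GAPDH transcript, and the strand setting of the counting is not given in the sources used here.

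PGK1 encodes phosphoglycerate kinase, the first ATP-yielding step, and its upstream window is printed above. It was at 511, 497 and 489 CPM with siALDOA and at 487, 484 and 490 CPM with siControl. These 6 values spanned a narrow range and overlapped. On the log2 scale the fold change was 0.04 (SE 0.053, 95% interval -0.07 to 0.15, adjusted p = 0.738), which excludes neither a small rise nor a small fall. The SD between the 3 siControl libraries was 3.11 CPM, against 10.8 CPM between the siALDOA libraries.

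PGAM1 encodes phosphoglycerate mutase, which moves the phosphate of phosphoglycerate to the neighbouring carbon. It was the gene of the 10 with the most negative fold change, at 292, 286 and 282 CPM with siALDOA and 311, 330 and 316 CPM with siControl. All 3 siALDOA libraries lay below all 3 siControl libraries. This gave a log2 fold change of -0.16 (SE 0.054, 95% interval -0.27 to -0.04), or -10.2%, with an adjusted p of 0.0782 in edgeR. PGAM1 was called in 3 alternatives: with DESeq2 (0.0269), with a block for the replicate number (0.0396) and without siALDOA replicate 1 (log2 fold change -0.17, adjusted p 0.0401). No other scaling in edgeR called it, and with library totals only the log2 fold change was -0.08 with an adjusted p of 0.603. The range of the adjusted p over all alternatives was 0.0269 to 0.603. Some reads of this gene could also match other genes, since 40.0% of the 150-base stretches of its canonical transcript occur in transcripts of other genes, 28.2% in ENSG00000186076 and others in PGAM4, ATP7A and ENSG00000216285. PGAM4, a near-copy without introns, was at 5.97 CPM with siALDOA and 6.34 CPM with siControl.

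Enolase turns phosphoglycerate into phosphoenolpyruvate and is encoded by 3 genes here. ENO1, the form of most tissues, was at 792, 912 and 872 CPM with siALDOA and at 853, 914 and 896 CPM with siControl. The groups overlapped, with siALDOA replicate 1 the lowest of the 6. The log2 fold change was -0.05 (SE 0.064, 95% interval -0.18 to 0.09, adjusted p = 0.710, edgeR), and its sign turned to 0.01 without siALDOA replicate 1. ENO2, the form known from neurons, was at 15.8, 16.0 and 14.6 CPM with siALDOA and at 18.3, 13.6 and 12.5 CPM with siControl. Here siControl replicate 1 held the highest value and the other siControl libraries the lowest ones. The log2 fold change of ENO2 was 0.06 (SE 0.12, 95% interval -0.19 to 0.32, adjusted p = 0.806), and it was -0.04 without siControl replicate 3 and 0.24 without siControl replicate 1.

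ENO3, the form known from muscle, had the largest fold change of the 10 and the lowest level. Its counts were 117, 110 and 103 with siALDOA and 70, 86 and 74 with siControl, or 4.20, 3.66 and 3.63 CPM against 2.24, 2.82 and 2.25 CPM. The groups did not overlap. The log2 fold change was 0.65 (SE 0.21, 95% interval 0.22 to 1.09), or 57.2% with an interval from 16.2% to 113%, and the adjusted p of 0.0537 in edgeR fell just short of the threshold. Over the alternatives the adjusted p ran from 0.0329 to 0.179. None of the 150-base stretches of its canonical transcript occurred in another gene.

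PKM encodes the muscle-type pyruvate kinase, of which proliferating cells mostly make the M2 splice form, and the gene-level counts do not separate its splice forms. It was at 1432.7, 1421.2 and 1468.1 CPM with siALDOA and at 1425.1, 1328.9 and 1408.9 CPM with siControl. The groups overlapped because siControl replicate 1 lay above siALDOA replicate 2. In edgeR the log2 fold change was 0.05 (SE 0.066, 95% interval -0.08 to 0.19, adjusted p = 0.681, edgeR).

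LDHA and LDHB encode the lactate dehydrogenase subunits that mix in the active tetramer, and the A subunit is the one usually tied to making lactate. LDHA was at 634, 621 and 567 CPM with siALDOA and at 572, 589 and 560 CPM with siControl. The highest 2 values came from siALDOA libraries, but siALDOA replicate 3 fell inside the siControl range. Its log2 fold change was 0.08 (SE 0.059, 95% interval -0.04 to 0.20, adjusted p = 0.436). LDHB was at 405, 363 and 349 CPM with siALDOA and at 351, 397 and 356 CPM with siControl. The highest and the lowest LDHB value both came from siALDOA libraries. Its log2 fold change was 0.02 (SE 0.065, 95% interval -0.12 to 0.15, adjusted p = 0.911, edgeR), and leaving out siALDOA replicate 1 turned its sign to -0.05. A same-strand gene, ENSG00000285854, shares 64.3% of the 150-base stretches of the canonical LDHB transcript and had no row of its own.

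Among the 10 genes, 8 fold changes were positive and 2 negative, with a median log2 fold change of 0.06, against 0.00 for all genes tested. With library totals only, 9 were positive with a median of 0.14, against 0.08 for all genes, while 7 were positive without siControl replicate 1 and 6 without siControl replicate 3. Their median absolute log2 fold change was 0.07, compared to 0.13 for all genes and 0.09 for all genes of at least 200 CPM. The 8 genes above that floor had log2 fold changes from -0.16 to 0.15. Their 95% intervals together reached from -0.27 to 0.28, that is from -17.0% to 21.5%, which excludes for each of them a change of the size seen in ALDOA. The intervals of ENO2 and ENO3 were wider and are given above.

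**Figure D2:**
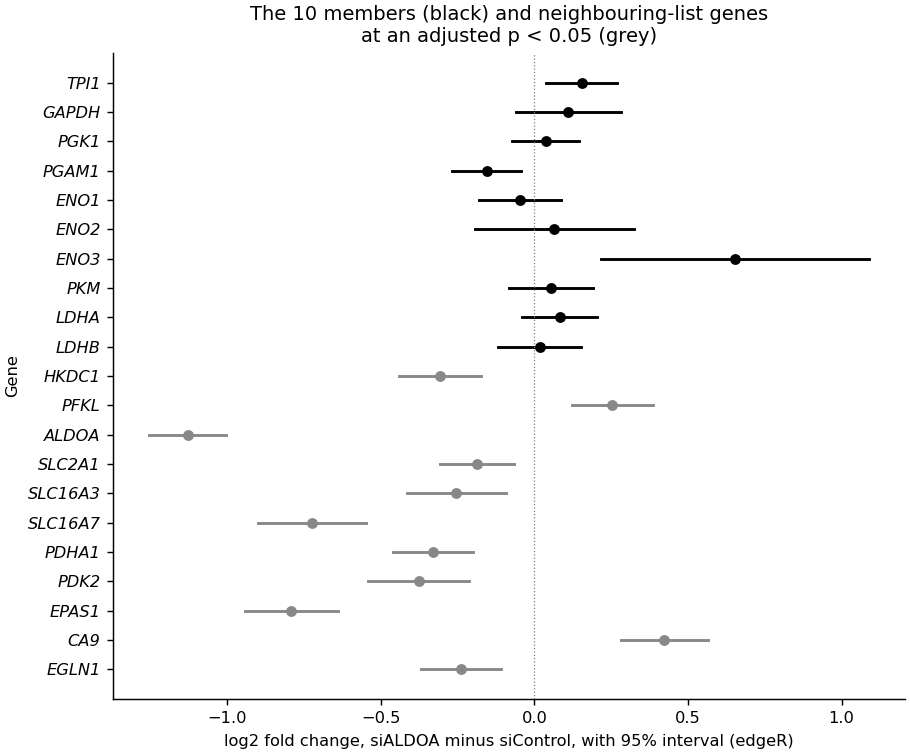
Points are log2 fold changes of siALDOA against siControl with 95% intervals from edgeR (n = 3 in each group), in black for the 10 genes and in grey for genes at an adjusted p below 0.05 from the lists of upper glycolysis, transport, pyruvate use, hypoxia and MYC factors and HIF targets. The intervals of TPI1, PGAM1 and ENO3 leave out 0 without an adjusted p below 0.05, and the ALDOA interval from -1.25 to -1.003 lies apart from those of the 10 genes.

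To set the levels of different genes side by side, CPM was divided by the merged exon length of each gene in GENCODE release 44. On this scale of CPM per kb, GAPDH was highest in siControl at 1058.5 ± 58.7 (SD, n = 3). It was followed by TPI1 at 180 ± 2.90, ENO1 at 170 ± 5.99, ALDOA at 165 ± 9.97 and PKM at 162 ± 6.01. ENO1 overlapped ALDOA and ALDOA overlapped PKM across the siControl libraries, so their order was not resolved on this scale. PGAM1 at 126 ± 3.97 and LDHB at 123 ± 8.34 overlapped as well, while LDHA at 95.2 ± 2.43 and PGK1 at 89.5 ± 0.572 came next without overlap. ENO2 at 3.46 ± 0.717 and ENO3 at 0.568 ± 0.0770 were far lower. The order of the genes between GAPDH and PGK1 depended on the length used. Per kb of the canonical transcript, the siControl means were 602 CPM for PKM, 498 for ENO1, 385 for ALDOA, 360 for TPI1, 282 for LDHB, 256 for LDHA and 177 for PGAM1, so that PKM took place 2 and TPI1 place 5, and ALDOA and TPI1 were the neighbours that overlapped.

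With siALDOA, ALDOA stood at 75.5 ± 3.57 CPM per kb and moved from place 4 to place 9 of these 11 genes, below PGK1 at 91.8 ± 1.98 and LDHA at 101 ± 5.87. With lengths of the canonical transcript in place of merged exons it moved from place 4 to place 7. Per library, the CPM of GAPDH was 4.01 times that of ALDOA in siControl and 9.47 times with siALDOA. The same ratio, on CPM and not on length, went from 2.20 to 4.99 for PKM, from 0.910 to 2.10 for LDHA and from 0.506 to 0.993 for PGAM1. ALDOA is the denominator of these ratios, and none of the numerators was called in the reported edgeR test.

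**Figure D3:**
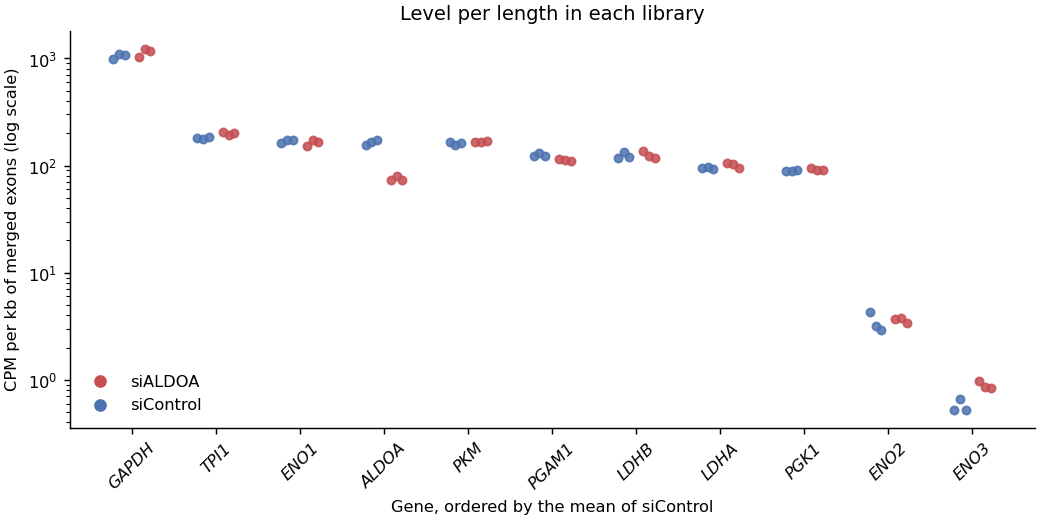
CPM per kb of merged exons in each library, on a log scale, for ALDOA and the 10 genes ordered by their siControl mean (siControl in blue, siALDOA in red). GAPDH is highest, ENO2 and ENO3 are lowest, and the siALDOA libraries lie well below the siControl libraries for ALDOA, in place 4 with siControl, and above them for ENO3.

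The balance between isozymes was compared within each library. LDHA made up 61.0%, 63.1% and 61.9% of the LDHA plus LDHB counts with siALDOA and 61.9%, 59.8% and 61.1% with siControl. The difference of 1.06 percentage points was within the spread (two-sided exact permutation test over 20 splits, p = 0.5, adjusted over 2 shares 0.6). ENO2 made up 1.95%, 1.72% and 1.65% of the counts of the 3 enolases with siALDOA and 2.10%, 1.47% and 1.38% with siControl. This difference of 0.126 points was also within the spread (exact permutation p = 0.6, adjusted 0.6), and its sign turned without siControl replicate 3. With 3 libraries against 3, the smallest p this test allows is 0.1.

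Summed, the 10 genes took 0.705%, 0.792% and 0.770% of all counts with siALDOA and 0.645%, 0.684% and 0.738% with siControl, and the groups overlapped. With ribosomal RNA genes left out of the total, which took the most counts in siControl replicate 1 (17.4%) and the fewest in siALDOA replicate 2 (7.71%), the shares were 0.812%, 0.858% and 0.837% against 0.781%, 0.808% and 0.803%. On that total the groups did not overlap, with means of 0.836 ± 0.0233 and 0.797 ± 0.0140 (SD, n = 3). Without GAPDH the other 9 genes took 0.528%, 0.527% and 0.520% against 0.512%, 0.511% and 0.510%. The summed TMM CPM, in contrast, was 7136.5, 7558.5 and 7387.8 with siALDOA and 6879.5, 7167.0 and 7140.2 with siControl, which overlapped. Such shares depend on the counts that all other genes take, and tell neither the RNA per cell nor the number of cells.

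Other genes for the same steps were mostly low. Of 11 such isozyme and near-copy genes, 8 passed the filter, none was called in either direction, and their summed level was 32.4 to 38.8 CPM before scaling with siALDOA and 28.6 to 32.5 with siControl. BPGM, a mutase family member that makes 2,3-bisphosphoglycerate, was the highest of them, with a log2 fold change of 0.30 (adjusted p = 0.112). The testis form PGK2 was at 0 counts in every library.

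Upstream of the 10 genes, 9 of 12 genes of upper glycolysis through aldolase were tested, of which 1 rose and 2 fell, with a median of 0.02. The number that fell was 3 with no filter on low counts, with the replicate block and without siALDOA replicate 2, and 1 with library totals only. HK2, a hexokinase, was not called in the reported test (log2 fold change -0.23, adjusted p = 0.103, edgeR). PFKL, the liver-type subunit of phosphofructokinase, was at 85.3, 97.4 and 88.3 CPM with siALDOA and 75.9, 76.1 and 75.3 CPM with siControl, and rose (log2 fold change 0.25, adjusted p = 0.0135). This call was lost in 3 of the fits that left out a library, at 0.102 (siALDOA 2 left out), 0.0568 (siControl 2) and 0.0691 (siControl 3). HKDC1, a hexokinase-like protein, was at 47.4, 45.8 and 47.6 CPM against 58.4, 57.7 and 57.8 CPM and fell by 0.31 on the log2 scale (adjusted p = 0.0034, edgeR), a call lost when only library totals were used for scaling (0.0906). The other called gene was ALDOA. ALDOC, an aldolase known from brain, had a log2 fold change of 0.04 (adjusted p = 0.835).

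Of 6 genes for moving glucose and lactate across the membrane, 5 were tested, all 5 had negative fold changes with a median of -0.19, and 3 fell. SLC16A7, a high-affinity monocarboxylate carrier (MCT2), was at 18.9, 17.4 and 17.8 CPM with siALDOA and 30.2, 29.1 and 30.0 CPM with siControl, and fell by 0.72 on the log2 scale (adjusted p = 5.81e-06). SLC16A3, the lactate exporter MCT4, was at 96.4, 126 and 103 CPM against 130, 131 and 128 CPM and fell by 0.25 (adjusted p = 0.0418). SLC2A1, the glucose transporter GLUT1, was at 416, 471 and 451 CPM against 523, 495 and 505 CPM and fell by 0.19 (adjusted p = 0.0473). In these 3 carriers, which are given because they were called, the groups did not overlap. The same held for SLC16A1, which was not called (adjusted p = 0.147, edgeR), and for 27.7% of all genes. The SLC16A3 and SLC2A1 calls were narrow: each was lost on leaving out any library other than siALDOA replicate 2, with adjusted p of 0.0829 (without siControl replicate 1), 0.131 (siControl 2), 0.0995 (siControl 3), 0.128 (siALDOA 1) and 0.151 (siALDOA 3) for SLC16A3 and 0.135, 0.0891, 0.149, 0.0987 and 0.0934 for SLC2A1 in the same order. Both calls were also lost with library totals only, at 0.26 for SLC16A3 and 0.489 for SLC2A1, and with upper quartile normalization, at 0.051 and 0.0571. That of SLC2A1 was lost as well with the filter of at least 10 counts in every library (0.0541). SLC2A3 was at 0 counts in every library.

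Downstream of pyruvate, 2 of 14 genes for its use in mitochondria fell and none rose, with a median of -0.03. PDHA1, the E1 alpha subunit of pyruvate dehydrogenase, was at 83.1, 80.0 and 76.5 CPM with siALDOA and 96.2, 106 and 98.7 CPM with siControl, and fell by 0.33 on the log2 scale (adjusted p = 0.00153). PDK2, a kinase that inhibits pyruvate dehydrogenase, was at 27.3, 27.1 and 26.2 CPM against 37.2, 32.7 and 34.8 CPM and fell by 0.38 (adjusted p = 0.00361, edgeR). In the glycerol phosphate branch, which draws on dihydroxyacetone phosphate, none of 3 genes was called, and GPD2, the most abundant of them, had a log2 fold change of -0.01 (adjusted p = 0.956).

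Among 4 genes for hypoxia and MYC factors, 1 fell. EPAS1, which encodes HIF-2 alpha, was at 35.6, 40.3 and 37.8 CPM with siALDOA and 61.7, 64.6 and 70.6 CPM with siControl, and fell by 0.79 on the log2 scale (adjusted p = 1.87e-07). HIF1A had a log2 fold change of 0.02 (adjusted p = 0.874) and MYC one of -0.18 (adjusted p = 0.0663), while 2 of the 4, MYC as well as EPAS1, were called lower with DESeq2, with no filter on low counts and with the replicate block. Of 11 HIF targets outside glycolysis, 1 rose and 1 fell, with a median of 0.07. CA9, a membrane carbonic anhydrase, was at 100, 103 and 93.3 CPM against 75.3, 67.4 and 78.6 CPM and rose by a log2 fold change of 0.42 (adjusted p = 0.000283). EGLN1, the oxygen-sensing prolyl hydroxylase PHD2, fell by 0.24 (adjusted p = 0.017, edgeR), a call lost with library totals only (0.23) and without siALDOA replicate 2 (0.0663), siALDOA replicate 3 (0.0589), siControl replicate 1 (0.0852) or siControl replicate 2 (0.055).

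GAPDH and other mRNAs used as references were set side by side for the same reason. Of 13 reference genes outside the 10, 12 were not called and B2M, the light chain of MHC class I, rose, at 1002.2, 931 and 927 CPM with siALDOA and 700, 718 and 669 CPM with siControl (log2 fold change 0.45, adjusted p = 3.16e-05, edgeR). Their median log2 fold change was 0.07, near the 0.06 of the 10 enzymes, and that of GAPDH was 0.11.

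**Figure D4:**
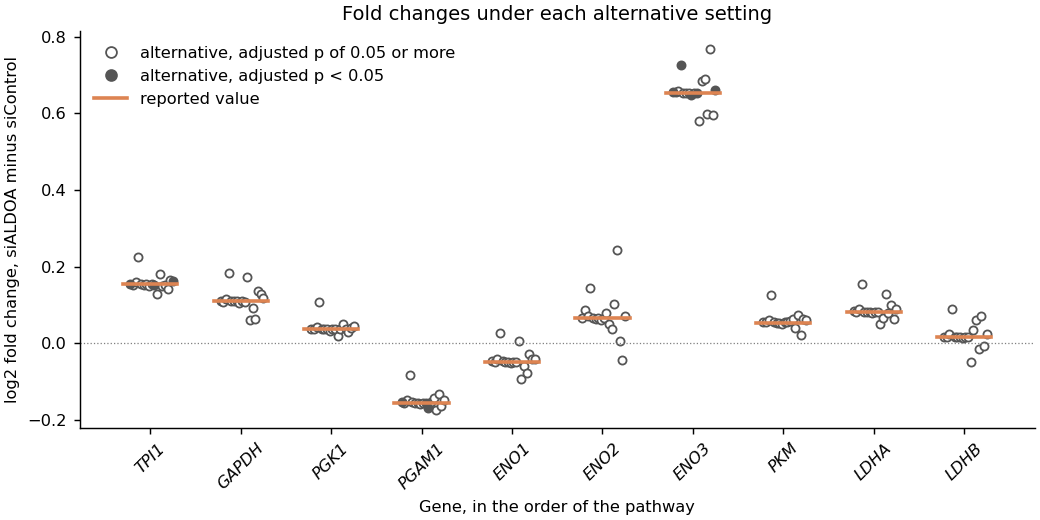
For each of the 10 genes, the orange line is the reported log2 fold change and each circle is its value under 1 of 17 alternative settings, filled where the adjusted p was below 0.05. Filled circles occur for TPI1, PGAM1 and ENO3, and the circles of ENO1, ENO2 and LDHB fall on both sides of 0.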

How the data were processed

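RNA-seq was performed on 6 HT29 libraries (3 siALDOA, 3 siControl, 48 h). The authors aligned paired-end reads to hg38 with TopHat2 and deposited whole-number counts per gene for each library, which their methods attribute to GFOLD. Which annotation was counted, whether strand was used and how multiply mapped reads were treated are not given in the sources used here, and genes that share sequence may share counts. The counts were analysed as deposited with edgeR 4.0.16 (R 4.3.3): genes were kept by filterByExpr with a minimum count of 10, libraries were scaled by TMM, and the quasi-likelihood test compared siALDOA with siControl, with Benjamini-Hochberg adjustment over all tested genes and a threshold of 0.05. Standard errors are the log2 fold change over the square root of F. The method was tested on simulated data, in which every planted change was larger than the fold change of any enzyme other than ENO3. Changes as small as those of the other enzymes were not simulated. Alternatives were DESeq2 1.42.0, limma-voom 3.58.1, other scalings and filters, a block for the replicate number, and fits without each library in turn. Library totals were 27277538 to 33237914 counts. Gene lengths, overlaps and shared 150-base stretches came from GENCODE release 44 on hg38, and upstream sequences from RefSeq (GRCh38.p14). P-values measure the spread between these libraries. Named genes were the 10 enzymes and ALDOA, every called gene of the other lists or, without one, the most abundant, and the 5 genes whose profile was most like the enzymes; other genes were added after their values were seen. The enzymes and all lists were chosen with earlier results of these data known.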

Additional observations from a re-analysis of the deposited data

How the results depend on the processing

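The sign of TPI1, GAPDH, PGK1, PGAM1, ENO3, PKM, LDHA and ALDOA held under all 17 alternatives. Against 0 in the reported test, the number of enzymes called higher was 2 with DESeq2, 2 with the replicate block, 2 with library totals without ribosomal RNA genes (a setting chosen after seeing the data), 1 with library totals only and 1 with no filter on low counts, the genes being ENO3 and, where 2, also TPI1. The same fits called 774, 987, 735, 896 and 832 of all genes higher, in that order, against 668. The number called lower was 1 (PGAM1) with DESeq2, with the replicate block and without siALDOA replicate 1, where 925, 1175 and 790 of all genes were lower, and ranged from 0 to 1 on leaving out each library. The cause of these differences was not tested. With library totals only, which moved the median log2 fold change of all genes from 0.00 to 0.08, 279 genes were called lower in place of 810. On leaving out each library, 359 to 644 genes were called higher and 471 to 790 lower, with fewer libraries in each fit. The sign reversed for ENO1 with library totals only (0.03) and without siALDOA replicate 1, for ENO2 without siControl replicate 3, and for LDHB without siALDOA replicate 1, siControl replicate 1 (-0.02) or siControl replicate 3 (-0.01). On leaving out each library, the log2 fold change ran from -0.0945 to 0.0062 for ENO1, from -0.0446 to 0.2445 for ENO2 and from -0.0491 to 0.072 for LDHB. It ran from 0.06 (without siALDOA replicate 2) to 0.17 for GAPDH, from 0.02 to 0.05 for PGK1, from 0.02 to 0.07 for PKM and from 0.05 to 0.13 for LDHA, none of them called, and with library totals only it was 0.18 for GAPDH, 0.11 for PGK1, 0.13 for PKM and 0.15 for LDHA. The difference between the groups in the ENO2 share of the enolases ran from -0.00958 to 0.351 percentage points, reversed without siControl replicate 3 (-0.00958). The difference in the LDHA share ran from 0.471 to 1.57 points. Same-numbered libraries correlated at 0.0348, 0.0274 and 0.0262 in their deviations from the group means, each the best match of its number. These values are low and do not decide whether the numbers mark pairs. The reported fit left the numbers out. The replicate block raised the calls over all genes from 668 to 987 higher and from 810 to 1175 lower. Counts of 70 to 117 per library limit the precision of ENO3, and 3 libraries a group limit every interval.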

Other observations

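The mean log2 CPM of the 10 enzymes, each weighted equally, was 8.18, 8.17 and 8.13 with siALDOA and 8.06, 8.09 and 8.03 with siControl, a difference of 0.10 between the group means. ENO3, the gene of the lowest counts, carried most of it, and without ENO3 the difference was 0.04. Among 10070 genes whose mean reached 10 CPM, the 5 whose log2 CPM followed this profile most closely over the 6 libraries were PASK (Pearson r = 0.998), KNTC1 (0.998), EEPD1 (0.990), DPH3 (0.990) and MIR5047 (0.987). Without ENO3 in the profile these 5 correlated at 0.887 to 0.929. These correlations are a description over few points that share library and scaling. Of these, KNTC1 rose (log2 fold change 0.32, adjusted p = 0.0166, edgeR) and the other 4 were not called. Within the 10, TPI1 and PGAM1 correlated at -0.857 and TPI1 and ENO3 at 0.866 over the same 6 libraries, with both groups pooled. These are the lowest and the highest value over all pairs of the 10. In each of these genes the groups did not overlap, so the values largely restate the group difference.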
